A study of Mus musculus with 9 samples.

Results

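The 10 genes described here, Pecam1, Cdh5, Kdr, Flt1, Tek, Tie1, Vwf, Emcn, Nos3 and Aplnr, are markers of endothelial cells. They were chosen by name, all 10 were found among 41710 gene names in the deposited tables, and all 10 passed the filter on low counts, which left 15504 genes. Transcript levels were measured by RNA sequencing of whole hearts from male mice of 8 months in FVB/N background, with n = 3 libraries from Tg-RKIP mice, n = 3 libraries labelled Tg-GRK2 and n = 3 from FVB mice without a transgene, the controls. RKIP, the RAF kinase inhibitor protein encoded by Pebp1, is expressed in Tg-RKIP mice under the alpha-MHC promoter, which is active in cardiomyocytes and not in endothelium. The promoter of the Tg-GRK2 line is not given in the sources used here.

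Endothelial cells line every vessel of the heart and the inside of its chambers. VEGF binds the receptors Kdr and Flt1 on their surface, and angiopoietins bind the receptor Tek, which acts together with Tie1. Cdh5 and Pecam1 hold neighbouring cells together, Nos3 makes nitric oxide, Vwf is stored for haemostasis, Emcn is a surface sialomucin of capillary and venous endothelium, and Aplnr is the receptor for apelin. In a whole heart, fewer cells of a type and less RNA per cell cannot be told apart.

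Several facts of the libraries bear on these genes. Libraries held 25458108 to 33447654 reads on transcripts. Pebp1 was at 15967 to 16371 TPM in the Tg-RKIP libraries, against 316 to 330 TPM in the other 6. Grk2 was at 24.9 to 30.5 TPM in the libraries labelled Tg-GRK2, 25.9 to 27.9 TPM in FVB and 34.6 to 37.8 TPM in Tg-RKIP. The libraries that carry its name overlapped with FVB and are called Tg-GRK2-labelled for this reason. Mitochondrial genes took 11.5 to 11.8% of the reads in Tg-RKIP and 22.4 to 23.2% in the others, and over all tested genes the median log2 fold change of Tg-RKIP against FVB was 0.01 with TMM scaling and 0.38 when libraries were scaled to total reads. The spread between libraries was small, with a biological coefficient of variation of 2.86%, and the labels number the libraries of each group as separate hearts, so p-values measure the spread between these hearts.

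Coverage along transcripts also differed between the groups. Short annotated transcripts that share only the 3′ end of a long coding transcript were compared with that long transcript in 279 genes. Their level relative to the long transcript was higher in Tg-RKIP than in FVB in 274 of these genes (98.2%), with a median change of 2.46 on the log2 scale. For short transcripts at the 5′ end, 64 of 134 genes were higher and the median change was -0.116. In the Tg-GRK2-labelled libraries, 49 of 279 genes were higher than in FVB at the 3′ end, with a median of -0.588. The median log2 fold change, Tg-RKIP against FVB, was 0.187 for genes whose longest transcript was under 2 kb, 0.0805 for 2 to 4 kb, -0.0925 for 4 to 6 kb and -0.306 above 6 kb. Each member was therefore also fitted with a term for transcript length, which was chosen after seeing the data. For Tek this gave -0.36 (adjusted p = 2.35e-09) and for Cdh5 -0.39 (adjusted p = 3.04e-13), and the values of the others stand with each gene.

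In FVB hearts, Pecam1 had the highest transcript level of the 10 genes, at 71.5 TPM, where TPM is reads per base of transcript, rescaled to a fixed sum per library. Cdh5 followed at 57.6 TPM, Emcn at 51.0 TPM, Kdr at 38.9 TPM and Vwf at 37.2 TPM. Flt1 was at 26.5 TPM, Tie1 at 22 TPM, Tek at 20.5 TPM, Aplnr at 15.3 TPM and Nos3 at 9.39 TPM. Of the 9 pairs of neighbours in this order, the libraries overlapped for Kdr and Vwf only. The order in the Tg-GRK2-labelled libraries differed only in that Tek stood before Tie1, at 22.7 and 21.1 TPM, and their libraries overlapped. In Tg-RKIP hearts the order changed. Vwf led at 192 TPM as the sum over its transcripts, of which the full-length coding one was at 19.4 TPM, followed by Emcn at 122 TPM and Pecam1 at 113 TPM, while Kdr, at 29.3 TPM, stood behind Tie1, at 31.2 TPM.

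**Figure D1:**
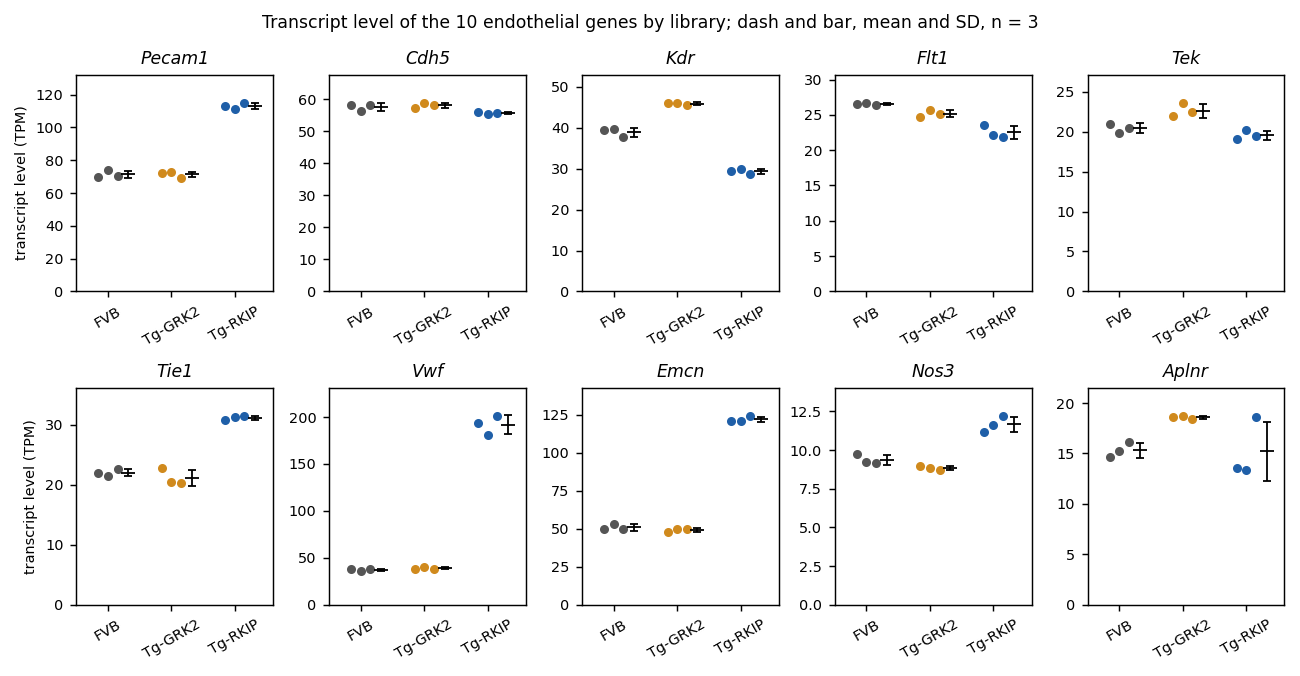
Transcript level in TPM (vertical axis, from 0) of each of the 10 genes in the 9 libraries, coloured by group, with the mean and SD of 3 libraries beside the points. Vwf, Emcn and Pecam1 are the highest of the 10 genes in Tg-RKIP, where Vwf is at 181 to 201 TPM against 35.7 to 38.1 TPM in FVB, while Kdr is at 28.6 to 30 TPM against 37.7 to 39.6 TPM.

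The question of the first comparison was how these genes differ between hearts with cardiomyocyte RKIP and control hearts. Counts were tested with edgeR's quasi-likelihood test and Benjamini-Hochberg adjustment over all 15504 genes, which applies to every adjusted p below. In Tg-RKIP against FVB, 4 of the 10 genes were higher (Vwf, Emcn, Pecam1 and Tie1) and 6 were lower (Kdr, Aplnr, Flt1, Tek, Cdh5 and Nos3). Of all genes tested, 36.8% were higher and 37.1% lower, 73.9% in all, so that a call in this comparison is common. Normalised reads did not overlap between the groups for any of the 10, as for 75.7% of all genes, and TPM did not overlap for 8 of the 10, as for 78.8% of all genes. Scaled to total reads instead of TMM, 5 members were higher, with Nos3 now among them, and 5 lower, against 62.6% and 17.1% of all genes. The median log2 fold change was -0.28 over the 10 genes and 0.01 over all genes. The members thus did not move in a single direction, and the calls of Tie1 and Nos3, the smallest differences, did not hold when some of the libraries were left out.

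The receptors of VEGF were lower in Tg-RKIP. Kdr, the main signalling receptor of VEGF, lies at chr5:76093487-76139118 on the minus strand (GRCm39, as the submitters' processing notes name the build). Scaled to a common library size with TMM, Kdr had 2737, 2818 and 2709 reads in Tg-RKIP, against 4920, 4990 and 4756 reads in FVB. All Tg-RKIP libraries were below all FVB libraries. The log2 fold change was -0.83 ± 0.02 (SE, adjusted p = 4.34e-18), a level 0.564 times that of FVB. With the length term it was -0.62 (adjusted p = 2.62e-16), and its mean TPM was 38.9 ± 1.04 in FVB and 29.3 ± 0.686 in Tg-RKIP (SD, n = 3 each). An exact two-sided permutation test of 3 against 3 libraries cannot go below 0.1, and it gave p = 0.1 for Kdr and for each member whose groups did not overlap in TPM, or p = 0.125 after Benjamini-Hochberg adjustment over the 10 genes.

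Flt1, which binds VEGF tightly and in its soluble form acts as a decoy, lies at chr5:147498414-147662821 on the minus strand. It had 2458, 2353 and 2330 normalised reads in Tg-RKIP, against 3737, 3767 and 3772 in FVB. The Tg-RKIP libraries were again all lower, with a log2 fold change of -0.66 ± 0.03 (adjusted p = 6.25e-16) and -0.40 (adjusted p = 3.16e-12) with the length term. Flt1 has 6 annotated transcripts, of which 2 reached a mean of 1 TPM in a group. The full-length receptor has 30 exons. The soluble form ends after 13 exons, because its last exon reads on into the next intron. The sequences below, from transcripts of GENCODE M21 (GRCm38) matched to the deposited tables by identifier and length, show where the forms part. Lower case marks the last 30 bases that both share, from the exon at chr5:147576035-147576343 (GRCm39), and capitals mark the first 30 bases that differ.
Flt1 full length: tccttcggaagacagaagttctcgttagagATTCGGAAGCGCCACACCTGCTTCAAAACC
Flt1 soluble: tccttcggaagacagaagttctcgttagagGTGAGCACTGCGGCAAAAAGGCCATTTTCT

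After the shared part, the soluble form has 92 further coding bases and then its stop codon. In TPM the full-length form was at 14.4 ± 0.350 in Tg-RKIP, 18.5 ± 0.277 in the Tg-GRK2-labelled libraries and 18.2 ± 0.431 in FVB (SD, n = 3 each), and the Tg-RKIP libraries lay below the FVB libraries. The soluble form was at 8.07 ± 0.478 in Tg-RKIP and 8.17 ± 0.476 in FVB, which overlapped. In the Tg-GRK2-labelled libraries it was at 6.59 ± 0.285, below all FVB libraries. The soluble form took 35.9% of the gene's TPM in Tg-RKIP hearts and 30.8% in FVB hearts. The unique part of the soluble form is its 3′ end. Against FVB, 3′ ends had relatively more reads in Tg-RKIP libraries and relatively fewer in the Tg-GRK2-labelled libraries. The part of this coverage in the levels and the ratio of the forms was not tested.

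Tek and Tie1, the receptors of the angiopoietin axis, differed from FVB in opposite directions. Tek binds the angiopoietins and lies at chr4:94627526-94763213 on the plus strand. It had 1374, 1469 and 1414 normalised reads in Tg-RKIP and 2017, 1923 and 1997 in FVB, without overlap, and its log2 fold change was -0.48 ± 0.03 (adjusted p = 2.81e-11). In TPM the Tek groups overlapped, at 19.6 and 20.5 TPM. Its reads were split over 3 transcripts of 22 or 23 exons, at 9.83, 8.66 and 1.02 TPM in Tg-RKIP and at 13.9, 3.42 and 3.14 TPM in FVB. The part of the coverage at 3′ ends, which differed between the groups, in this split was not tested.

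Tie1, an orphan partner of Tek, lies at chr4:118328388-118347258 on the minus strand. It had 1985, 2029 and 2052 normalised reads in Tg-RKIP, against 1892, 1862 and 1965 in FVB. The groups did not overlap but came close, with a log2 fold change of 0.09 ± 0.04 (adjusted p = 0.0447). Leaving out any single library of the 2 groups other than FVB replicate 3 lost this call, with adjusted p-values up to 0.193 without FVB replicate 2. The length term raised the value to 0.18 (adjusted p = 0.000209).

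The junction genes also parted. Cdh5, the cadherin of endothelial junctions, lies at chr8:104828257-104871143 on the plus strand. It had 3527, 3519 and 3563 normalised reads in Tg-RKIP and 4883, 4778 and 4952 in FVB, without overlap, and a log2 fold change of -0.46 ± 0.02 (adjusted p = 2.7e-14). In TPM Cdh5 was nearly level, at 55.8 ± 0.304 against 57.6 (SD, n = 3), and the call was lost on log2(TPM + 0.1) with limma (-0.05, adjusted p = 0.117). An unstranded count could not separate Cdh5 from the antisense gene Gm29682, which overlaps it, and the strand setting is not given in the sources used here. Gm29682 had 0 reads in all 9 libraries.

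Pecam1, an adhesion molecule of the immunoglobulin family, lies at chr11:106545043-106641454 on the minus strand. It had 5605, 5541 and 5773 normalised reads in Tg-RKIP and 4710, 4994 and 4783 in FVB, without overlap. The log2 fold change was 0.22 ± 0.02 (adjusted p = 5.18e-08), and 0.25 (adjusted p = 6.73e-09) with the length term. Of 8 annotated transcripts, 3 reached a mean of 1 TPM. The difference lay in the transcript ENSMUST00000183610, at 46.7 to 55.3 TPM in Tg-RKIP, 13.9 to 14.6 TPM in the Tg-GRK2-labelled libraries and 13.7 to 20.7 TPM in FVB. The other 2 transcripts overlapped between Tg-RKIP and FVB, at 32 and 28.7 TPM for ENSMUST00000103069 and at 29.2 and 25 TPM for ENSMUST00000080853. The rising transcript lacks the coding exon of 303 bases at chr11:106587878-106588180 and contains an exon of 23 bases near its 3′ end. Lower case below marks the 30 bases before the missing exon, and capitals mark the 30 bases that follow in each form.
Pecam1 with the exon: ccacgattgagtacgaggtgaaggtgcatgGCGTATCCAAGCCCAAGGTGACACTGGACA
Pecam1 ENSMUST00000183610: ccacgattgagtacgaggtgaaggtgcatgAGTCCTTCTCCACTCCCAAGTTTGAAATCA

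Single reads of 50 bases cover such a junction only where they cross it, and how the authors divided reads between transcripts is not given in the sources used here. Against FVB, Tg-RKIP libraries had relatively more reads at 3′ ends. The part of this coverage in the division of reads between the Pecam1 transcripts was not tested. When only the most abundant transcript of each gene over all 9 libraries was counted, Pecam1 was not called and its sign turned (log2 fold change -0.30, adjusted p = 0.0852). For Pecam1 that transcript was ENSMUST00000103069, so this fit left out the rising transcript ENSMUST00000183610.

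Vwf, the von Willebrand factor stored in endothelial cells and platelets, had the greatest log2 fold change of the 10 genes, and its value depended on which transcript was counted. It lies at chr6:125523737-125663642 on the plus strand. Vwf had 7677, 7414 and 7524 normalised reads in Tg-RKIP, 4059, 4131 and 4031 in the Tg-GRK2-labelled libraries and 3789, 3794 and 3813 in FVB. The Tg-RKIP libraries stood far above the other 6, with a log2 fold change against FVB of 0.99 ± 0.02 (adjusted p = 1.67e-20), and 1.34 (adjusted p = 6.73e-23) with the length term. That term used the 8834 bases of the longest coding transcript, whereas the rise lay in transcripts of 2686 and 456 bases. The part of the coverage at 3′ ends in both values was not tested.

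The rise of Vwf lay in transcripts of its 3′ part. Of 11 annotated transcripts, 3 reached a mean of 1 TPM. ENSMUST00000147101, a 19-exon transcript classed under nonsense-mediated decay, was at 97.0 to 103 TPM in Tg-RKIP against 11.9 to 15.9 TPM in FVB, and it holds 16 whole exons of the full-length form, between exons 35 and 51. ENSMUST00000146264, a processed transcript of 2 exons at the 3′ end, was at 63.0 to 80.9 TPM in Tg-RKIP against 6.35 to 7.85 TPM in FVB. The full-length coding transcript ENSMUST00000112254, of 52 exons and 8834 bases, was at 18.2 to 20 TPM in Tg-RKIP against 15 to 16.1 TPM in FVB. Counted alone, after seeing the data, the full-length transcript turned the sign of the difference (log2 fold change -0.09 ± 0.03, adjusted p = 0.00994). The ratio of the 3′ transcripts to the full-length form changed by 2.70 on the log2 scale, above 60.6% of the 279 genes with such transcripts. The coding junction below is shared by all 3 of these Vwf transcripts, and a read across it cannot tell them apart. Capitals mark the end of exon 51 at chr6:125662773-125662870 and lower case the start of the next exon.
Vwf last junction: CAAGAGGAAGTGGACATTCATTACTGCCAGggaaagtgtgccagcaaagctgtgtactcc

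Platelets are another source of Vwf. Of 5 platelet and megakaryocyte markers, 4 were higher in Tg-RKIP than in FVB and 0 were lower, and their summed level was 51.5 to 61.9 TPM in Tg-RKIP, 34.6 to 37.6 TPM in the Tg-GRK2-labelled libraries and 26.4 to 27.4 TPM in FVB. All 5 were above 0 in every group. Their part in the Vwf value was not tested.

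**Figure D2:**
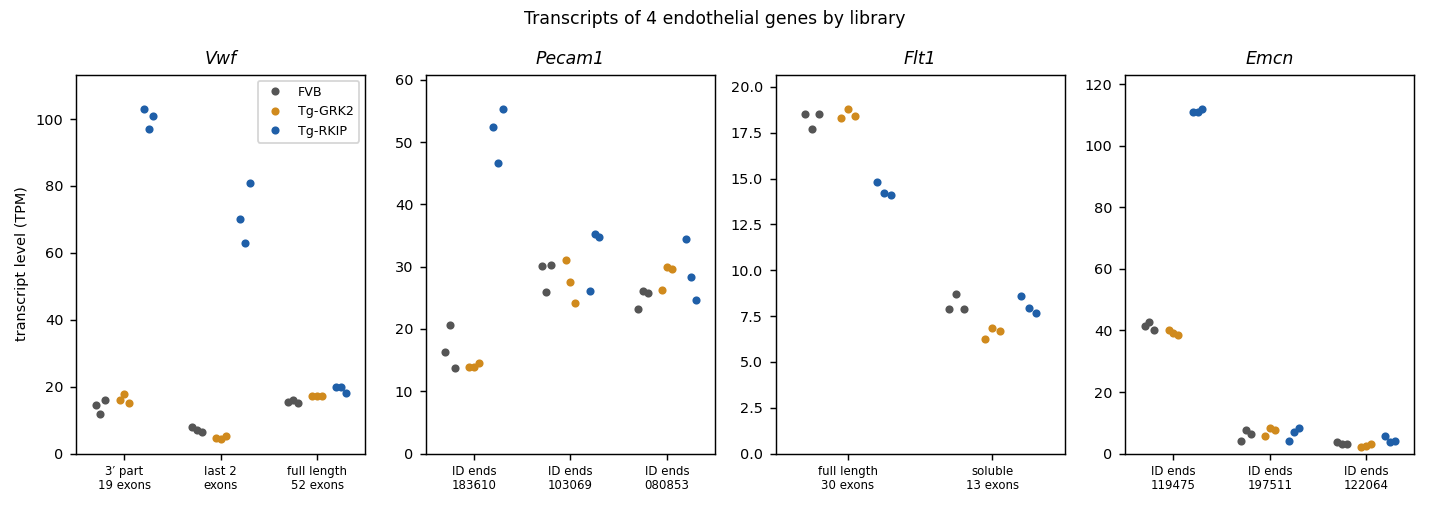
Level in TPM (vertical axis, from 0) of the transcripts of Vwf, Pecam1, Flt1 and Emcn with a mean of at least 1 TPM in a group, 1 point a library, coloured by group. The Tg-RKIP points lie far above the others for the 2 short Vwf transcripts, 1 Pecam1 transcript and 1 Emcn transcript, and by less for full-length Vwf, at 18.2 to 20 TPM against 15 to 16.1 TPM in FVB, and they lie below the others for full-length Flt1.

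Emcn, endomucin, lies at chr3:137046828-137137946 on the plus strand and rose in Tg-RKIP. It had 2664, 2632 and 2696 normalised reads in Tg-RKIP, against 1484, 1518 and 1443 in FVB. The Tg-RKIP libraries were all higher, with a log2 fold change of 0.84 ± 0.03 (adjusted p = 8.42e-17), or 1.80-fold, and 0.79 (adjusted p = 1.36e-16) with the length term. In TPM the rise was 2.40-fold, from 51.0 to 122 TPM. It lay in the transcript ENSMUST00000119475 of 1357 bases, at 111 TPM in Tg-RKIP against 41.4 TPM in FVB, while the longest transcript, of 2588 bases, was at 4.49 and 3.30 TPM. With a longest coding transcript of 2588 bases, Emcn is the shortest of the 10 genes, and its difference was above the median of 0.0805 for genes of 2 to 4 kb.

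Nos3, the endothelial nitric oxide synthase, lies at chr5:24569808-24589472 on the plus strand and depended on scaling. It had 728, 759.6 and 806 normalised reads in Tg-RKIP and 850.1, 809.7 and 807.6 in FVB, so the groups came within 2 reads of each other. The log2 fold change was -0.11 ± 0.04 (adjusted p = 0.0372). The call was lost without Tg-RKIP replicate 1 (adjusted p = 0.146), without Tg-RKIP replicate 2 (adjusted p = 0.0837), without FVB replicate 1 (adjusted p = 0.125) and with the length term (-0.02, adjusted p = 0.667). Scaled to total reads the sign turned (0.27, adjusted p = 8.77e-06), and in TPM Nos3 went from 9.39 ± 0.319 in FVB to 11.7 ± 0.506 in Tg-RKIP (SD, n = 3), without overlap. The antisense genes Atg9b and Gm15587 overlap Nos3, with up to 47 and 8 reads in a library, and without strand the reads of overlapping genes cannot be told apart.

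Aplnr, the apelin receptor, lies at chr2:84966569-84970267 on the plus strand. It had 744, 737.6 and 743.3 normalised reads in Tg-RKIP and 1137, 1198 and 1239 in FVB, without overlap, and its log2 fold change was -0.68 ± 0.04 (adjusted p = 5.41e-13). With the length term it was -0.64 (adjusted p = 1.65e-12). In TPM the groups overlapped, because Tg-RKIP replicate 3 was at 18.6 TPM beside 13.6 and 13.4 TPM. The excess lay in a transcript of 313 bases to which 34 reads were given in that library, against 5 and 6 reads in the other Tg-RKIP libraries. The main transcript of Aplnr was at 12.4 ± 0.352 TPM in Tg-RKIP against 15.2 ± 0.572 TPM (SD, n = 3) in FVB, without overlap.

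**Figure D3:**
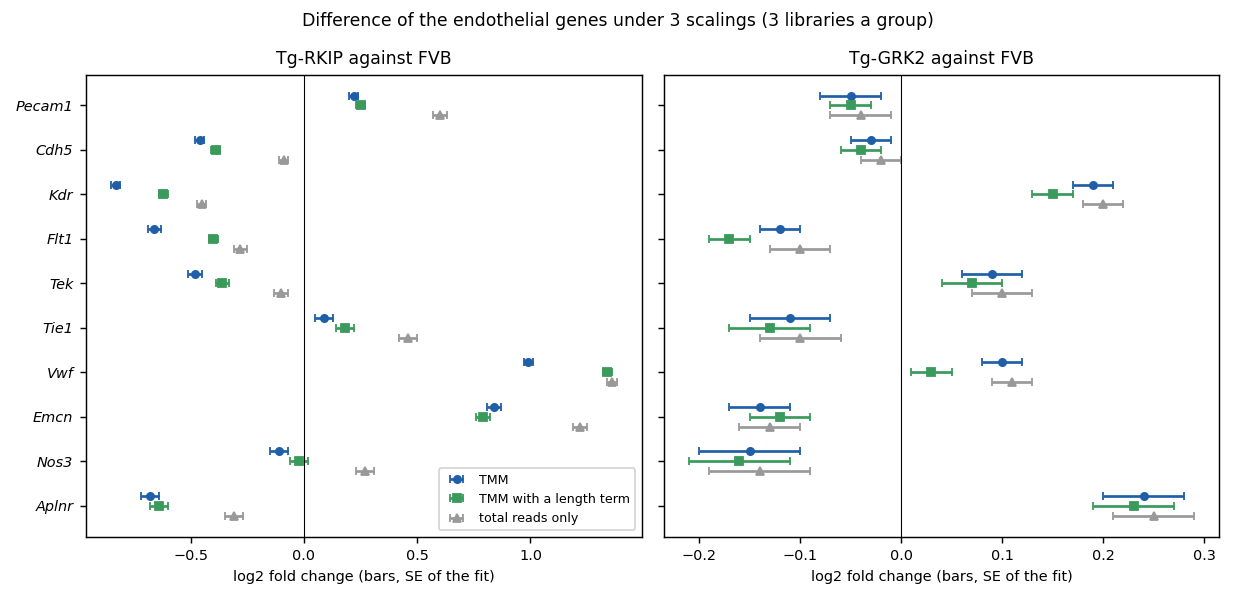
Log2 fold change (horizontal axis, bars are the SE of the fit) of the 10 genes, Tg-RKIP against FVB on the left and the Tg-GRK2-labelled libraries against FVB on the right, under TMM scaling, TMM with a length term and scaling to total reads, with 3 libraries a group and different horizontal scales. Kdr, Flt1, Cdh5, Tek and Aplnr stay below 0 on the left under all 3, Vwf, Emcn, Pecam1 and Tie1 stay above 0, and Nos3 moves from -0.11 to 0.27.

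**Figure D4:**
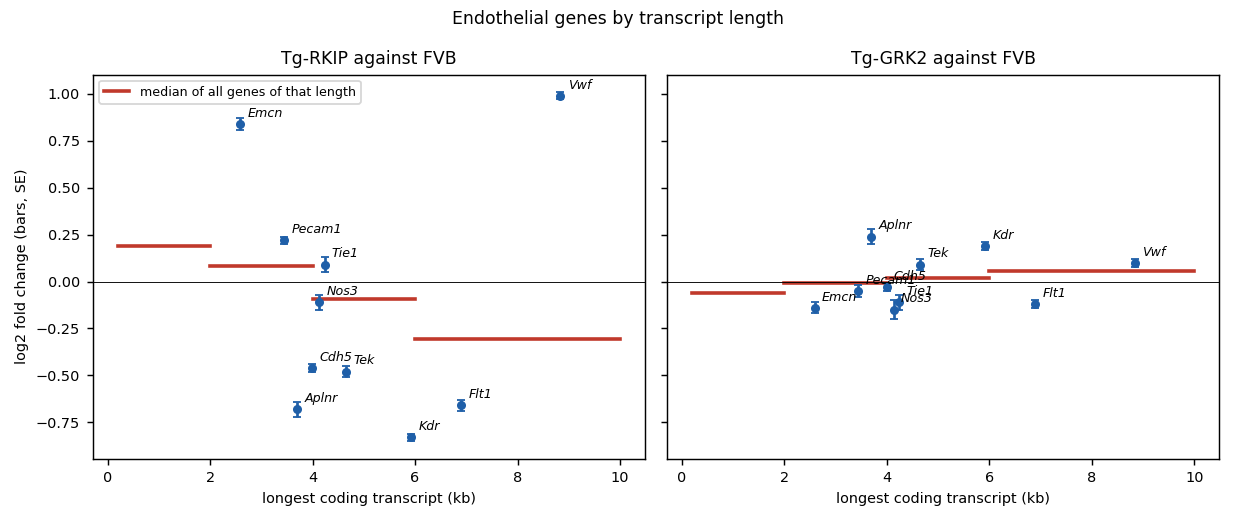
Log2 fold change of the 10 genes (vertical axis, bars are the SE) against the length of the longest coding transcript in kb (horizontal axis), with red lines for the median of all tested genes of each length class, Tg-RKIP against FVB on the left and the Tg-GRK2-labelled libraries against FVB on the right. On the left the red lines descend from 0.187 to -0.306, Kdr and Flt1 lie below them, and Vwf, the longest at 8834 bases, and Emcn lie above.

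Promoter sequence was at hand in the RefSeq table (GRCm38.p6) for 5 of the 10 genes, Emcn, Tek, Tie1, Kdr and Flt1. The 250 bases before the start site are printed for the VEGF receptors, which were both lower in Tg-RKIP, and for Emcn, which rose. ETS factors, to which endothelial genes are known to respond, bind sites of which AGGAAG, or its complement CTTCCT, is one form. Only this form was searched, on both strands, and it is in capitals. Other sequences that ETS factors bind were not searched, so a window without it may still hold such sites.
Emcn, chr3:137340828-137341077, plus strand: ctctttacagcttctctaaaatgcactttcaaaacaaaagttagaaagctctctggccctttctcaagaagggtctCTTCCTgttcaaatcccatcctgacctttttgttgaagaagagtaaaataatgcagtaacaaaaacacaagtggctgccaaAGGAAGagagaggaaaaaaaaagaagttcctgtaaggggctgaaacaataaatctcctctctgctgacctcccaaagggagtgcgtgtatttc
Flt1, chr5:147726012-147726261, minus strand: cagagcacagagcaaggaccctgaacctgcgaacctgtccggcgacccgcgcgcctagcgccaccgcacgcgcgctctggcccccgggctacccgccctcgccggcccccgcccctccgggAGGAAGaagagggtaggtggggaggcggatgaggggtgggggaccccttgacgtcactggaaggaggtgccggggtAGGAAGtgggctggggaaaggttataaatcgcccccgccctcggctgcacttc
Kdr, chr5:75978456-75978705, minus strand: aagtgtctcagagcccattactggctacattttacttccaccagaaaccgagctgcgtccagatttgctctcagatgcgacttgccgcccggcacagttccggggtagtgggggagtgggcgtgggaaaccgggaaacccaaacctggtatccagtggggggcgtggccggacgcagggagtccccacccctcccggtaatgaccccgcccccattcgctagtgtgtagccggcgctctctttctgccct

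These 6 letters occurred 2 times in the windows of Emcn and Flt1, 1 time in that of Tie1 and 0 times in those of Kdr and Tek, and 29.5% of the 32851 windows in the table held them. The windows of Kdr and Flt1 had 61.6% and 70.4% G and C, and that of Emcn 40.8%. A gene that rose and a gene that fell thus both held the motif.

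A ratio inside a library does not depend on the scaling between libraries. The level of each member was therefore divided by the median level of 23 other genes that most endothelial cells express, on the log2 scale of TPM. Relative to these, Vwf was higher in Tg-RKIP than in FVB by 2.11, Emcn by 1.01, Pecam1 by 0.41 and Tie1 by 0.25, and the libraries did not overlap. Kdr differed by -0.66, Flt1 by -0.49, Tek by -0.32 and Cdh5 by -0.30, also without overlap. Nos3 (0.06) and Aplnr (-0.28) overlapped. The part of transcript length and of coverage at 3′ ends, which differed between the groups, in these ratios was not tested. With the summed level of the 23 genes in place of their median, Tie1 was at -0.00451 and Nos3 at -0.193. The value of Vwf is that of the sum over its transcripts, whereas the full-length transcript alone was at -0.09 against FVB in the fit of read counts. The exact two-sided permutation test gave p = 0.1 for each of the 8, its smallest value, and p = 0.125 after Benjamini-Hochberg adjustment over the 10 genes. The summed level of the 23 genes was 850 to 864 TPM in Tg-RKIP against 595 to 616 TPM in FVB, and that of the 9 members other than Vwf was 417 to 427 and 311 to 316 TPM. In the fit of read counts, 8 of the 23 genes were higher and 12 lower, with a median of -0.11. On the TPM scale the median of all genes was itself shifted by 0.43 (limma on log2(TPM + 0.1)).

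In the Tg-GRK2-labelled libraries the 10 genes lay close to FVB. Against FVB, 3 of them were higher (Aplnr, Kdr and Vwf) and 4 lower (Nos3, Emcn, Flt1 and Tie1), against 12.2% of all tested genes higher and 12.2% lower, 24.5% in all. Normalised reads did not overlap for 7 of the 10, as for 37.1% of all genes, and TPM for 5 of the 10, as for 33.8%. Aplnr had 1410, 1403 and 1399 normalised reads, above the 1137 to 1239 of FVB, with a log2 fold change of 0.24 ± 0.04 (adjusted p = 3.42e-05). Kdr had 5616, 5542 and 5563, above all FVB libraries, with a log2 fold change of 0.19 ± 0.02 (adjusted p = 2.53e-06).

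The other differences were smaller. Vwf differed by 0.10 ± 0.02 (adjusted p = 0.00178) and by 0.03 with the length term (adjusted p = 0.381). Emcn differed by -0.14 ± 0.03 (adjusted p = 0.00287), Flt1 by -0.12 ± 0.02 (adjusted p = 0.00129) and Nos3 by -0.15 ± 0.05 (adjusted p = 0.0186). Tie1 differed by -0.11 ± 0.04 (adjusted p = 0.0417) with overlapping libraries. The calls of Tie1 and Nos3 were lost when Tg-GRK2-labelled replicate 2 or 3 or FVB replicate 1 was left out, and that of Tie1 also without FVB replicate 3, with adjusted p-values of 0.0501 to 0.205. Pecam1 (-0.05 ± 0.03, adjusted p = 0.153), Cdh5 (-0.03 ± 0.02, adjusted p = 0.29) and Tek (0.09 ± 0.03, adjusted p = 0.0574) were not called.

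Tg-RKIP and the Tg-GRK2-labelled libraries were also compared directly. Of the 10 genes, 4 were higher in Tg-RKIP and 5 lower, against 37.9% and 36.6% of all tested genes, 74.5% in all. Scaled to total reads, 5 were higher and 5 lower, against 62% and 18.4% of all genes. The greatest differences were Kdr, at a log2 fold change of -1.02 ± 0.02 (adjusted p = 8.5e-20), Emcn, higher by 0.98 ± 0.03 (adjusted p = 5.35e-18), and Aplnr, at -0.92 ± 0.04 (adjusted p = 1.26e-15). Nos3 was not called (0.05 ± 0.04, adjusted p = 0.358). As both transgenic groups share the FVB controls, their values against FVB are not independent of each other.

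The genes around the members, some of which act on their receptors, were described from lists of 15 kinds, 116 genes in all, of which 114 were tested. In Tg-RKIP against FVB, 54 were higher and 40 lower, with a median log2 fold change of 0.07 beside 0.01 over all genes. Of all tested genes, 36.8% were higher and 37.1% lower, and with scaling to total reads 82 of the list genes were higher and 20 lower, beside 62.6% and 17.1% of all genes. In the Tg-GRK2-labelled libraries against FVB, 11 were higher and 39 lower, with a median of -0.05 beside -0.00, where 12.2% of all genes were higher and 12.2% lower. The counts given for single lists stand beside the same shares.

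Of the 8 ligands and further receptors of the VEGF family, in Tg-RKIP 4 were above FVB and 4 below by the test, and 2 were higher and 0 lower in the Tg-GRK2-labelled libraries. The main ligand Vegfa was lower (log2 fold change -0.69 ± 0.02, adjusted p = 8.73e-17), at 56.7 ± 1.44 TPM against 67.6 ± 1.13 TPM in FVB (SD, n = 3). Vegfb, a ligand of Flt1, was lower at -0.52 and the co-receptor Nrp1 at -0.66. Nrp2, a further co-receptor, was at -0.32 in normalised reads (adjusted p = 7.31e-08), but higher on the TPM scale and not called with the length term (-0.07, adjusted p = 0.102). The ligands of lymphatic growth were higher, Vegfd by 1.49 ± 0.10 (adjusted p = 8.84e-12) and Vegfc by 0.33 (adjusted p = 0.000774), as was their receptor Flt4, by 0.52 (adjusted p = 1.15e-08). Pgf, a ligand of Flt1, was at 0.23 (adjusted p = 0.0455) and lost the call with the length term (adjusted p = 0.234) and in 3 of 6 fits with a library left out. Among Tg-GRK2-labelled libraries, Vegfa was higher than in FVB by 0.16 (adjusted p = 1.5e-05) and Nrp2 by 0.27 (adjusted p = 6.25e-06).

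All 4 genes that act on Tek and Tie1 were called in Tg-RKIP, 2 in each direction. Angpt1, the agonist of Tek made by mural and other perivascular cells, was lower in Tg-RKIP, with a log2 fold change of -1.63 ± 0.04 (adjusted p = 7.63e-20), at 9.63 TPM against 22.3 TPM in FVB. Angpt2, which endothelial cells release and which can act against Angpt1, was higher by 1.61 ± 0.10 (adjusted p = 4.65e-12), at 6.52 TPM against 1.65 TPM. Angpt4 was higher by 3.66 ± 0.24 (adjusted p = 7.52e-12), at 3.33 TPM against 0.193 TPM. Ptprb, a phosphatase that acts on Tek and Cdh5, was lower at -0.61 (adjusted p = 1.75e-15) and at -0.17 with the length term (adjusted p = 1.07e-06). For the Tg-GRK2-labelled libraries only Ptprb was called of these 4 genes, at -0.08 (adjusted p = 0.0283), and it lost the call in 3 of 6 fits with a library left out.

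Apln, which encodes apelin, differed from FVB at -0.26 ± 0.06 in Tg-RKIP (adjusted p = 0.00111) and by 0.38 in the Tg-GRK2-labelled libraries (adjusted p = 5.7e-05). In TPM it was at 7.23 in Tg-RKIP, 8.76 in the Tg-GRK2-labelled libraries and 6.48 in FVB, so its sign in Tg-RKIP turned on that scale. The other ligand, Apela, did not pass the filter on low counts and was not tested.

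In Tg-RKIP 5 of 11 genes around nitric oxide were higher and 3 lower, with a median of 0.07. Ddah1, which degrades inhibitors of nitric oxide synthases, was higher by 1.41 ± 0.06 (adjusted p = 5.95e-15), at 16.5 TPM against 5.55 TPM. Nos2, the inducible synthase, was at -0.62 in Tg-RKIP (adjusted p = 4.02e-06) and at 0.32 in the Tg-GRK2-labelled libraries (adjusted p = 0.00926). On its most abundant transcript neither value was called, at -0.14 (adjusted p = 0.501) and 0.19 (adjusted p = 0.569), and limma on log2(TPM + 0.1) without a filter gave adjusted p-values of 0.0606 and 0.0835. The second call was also lost in 1 of 6 fits without a library, that without Tg-GRK2-labelled replicate 1 (0.25).

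Genes of haemostasis were mostly higher in Tg-RKIP, with 5 of 7 tested genes higher, 1 lower and a median of 0.54. Selp, P-selectin, which is stored with Vwf in endothelium and is also found in platelets, was higher by 3.22 ± 0.16 (adjusted p = 4.2e-14), at 9.25 TPM against 0.659 TPM. Procr, the protein C receptor, was higher by 2.19 (adjusted p = 3.79e-15), Tfpi, the inhibitor of the tissue factor pathway, by 0.54 (adjusted p = 2.61e-16) and Plat, a plasminogen activator, by 0.34 (adjusted p = 2.95e-05). Among Tg-GRK2-labelled libraries, 0 of the 7 were higher and 3 were lower, among them Thbd at -0.19 (adjusted p = 7.84e-05) and Tfpi at -0.14 (adjusted p = 2.87e-05). On its most abundant transcript Tfpi was not called in Tg-RKIP (0.17, adjusted p = 0.0506) or in the Tg-GRK2-labelled libraries (-0.16, adjusted p = 0.19).

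Lists of vessel types gave unequal counts. Of 10 capillary genes, 7 were lower and 1 higher in Tg-RKIP, with a median of -0.38, among them Cd36, a fatty acid transporter that cardiomyocytes also express, at -0.91 ± 0.02 (adjusted p = 2.36e-19), and Car4, a carbonic anhydrase, at -0.65 (adjusted p = 5.76e-07). The Car4 call was lost with limma on log2(TPM + 0.1) (-0.16, adjusted p = 0.112). These capillary counts and their median hold for TMM scaling, and the median of all genes was 0.38 with scaling to total reads. In mean TPM the capillary genes went both ways, with Fabp4 at 855 in Tg-RKIP against 599 in FVB and Cd36 at 702 against 1016. For the Tg-GRK2-labelled libraries, 9 of these 10 were lower and 0 higher, with a median of -0.29, among them Timp4 at -1.08 (adjusted p = 1.45e-09) and Car4 at -0.58 (adjusted p = 2.98e-05). In Tg-RKIP 5 of 9 arterial genes were higher and 2 lower. The connexin Gja4 was higher by 1.66 (adjusted p = 1.46e-16) and the kinase Bmx by 1.78 (adjusted p = 4.72e-16), while the connexin Gja5, also a gene of atrial and conduction cardiomyocytes, was lower at -1.33 (adjusted p = 4.07e-14). Of 3 venous genes 2 were higher, with Nr2f2, a transcription factor of venous identity, at 0.99 (adjusted p = 2.23e-14). Of 4 endocardial genes 3 were higher, Cytl1 by 1.96 (adjusted p = 4.78e-22), Plvap by 1.87 (adjusted p = 1.49e-20) and Npr3 by 0.15 (adjusted p = 1.36e-05), with a median of 1.01. Among Tg-GRK2-labelled libraries 3 of these 4 were lower, Tmem108 at -0.40 (adjusted p = 0.00449), Cytl1 at -0.31 (adjusted p = 1.26e-05) and Npr3 at -0.15 (adjusted p = 0.000161). Each of these calls was lost under an alternative. On the most abundant transcript Tmem108 (adjusted p = 0.33) and Cytl1 (adjusted p = 0.382) were not called. Npr3 was not called with limma on log2(TPM + 0.1) (-0.06, adjusted p = 0.237).

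All 7 genes of growing vessels and their basement membrane were higher in Tg-RKIP, with a median of 0.61, and 3 of 7 in the Tg-GRK2-labelled libraries. The tip cell gene Esm1 was higher by 1.40 (adjusted p = 3.41e-08) in Tg-RKIP and by 0.83 (adjusted p = 0.000756) in the Tg-GRK2-labelled libraries. The collagen IV chains Col4a1 and Col4a2, which mural cells and fibroblasts also make, were higher by 0.59 (adjusted p = 8.33e-17) and 0.58 (adjusted p = 2.11e-17) in Tg-RKIP, and by 0.45 (adjusted p = 3.61e-13) and 0.48 (adjusted p = 2.34e-14) in the Tg-GRK2-labelled libraries. Of 3 leukocyte adhesion molecules, 2 were higher in Tg-RKIP, Icam1 (1.1, adjusted p = 4.05e-14) and Vcam1 (1.23, adjusted p = 1.65e-19), and 1 was lower, Sele (-0.55, adjusted p = 0.0416). The libraries of Sele overlapped, at means of 0.639 and 0.693 TPM, and its call was lost when Tg-RKIP replicate 1 or 2 or FVB replicate 1 or 2 was left out (adjusted p = 0.106 to 0.156), with the replicate block (adjusted p = 0.0568) and with scaling to total reads (-0.17, adjusted p = 0.503). Of 6 lymphatic genes, 4 were higher and 1 lower, with the chemokine Ccl21a at 1.60 (adjusted p = 5.18e-18), the glycoprotein Pdpn at 1.14 (adjusted p = 1.4e-12) and Prox1, which cardiomyocytes express as well, at -0.64 (adjusted p = 7.14e-16). For the Tg-GRK2-labelled libraries, Prox1 was at 0.34 (adjusted p = 4.51e-10).

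Of 23 other genes of most endothelial cells, 8 were higher and 12 lower in Tg-RKIP, with a median of -0.11, and 1 was higher and 9 lower in the Tg-GRK2-labelled libraries, with a median of -0.05. Endoglin, Eng, was higher in Tg-RKIP by 0.51 (adjusted p = 3.04e-15) and Ecscr by 0.50 (adjusted p = 6.05e-07), while Cyyr1 was lower at -1.35 (adjusted p = 6.99e-19) and Adgrl4 at -0.83 (adjusted p = 2.48e-14). Among Tg-GRK2-labelled libraries, Cd34 was higher by 0.17 (adjusted p = 3.74e-05) and Myct1 lower at -0.31 (adjusted p = 1.51e-05). Of 13 transcription factors of endothelial cells, 4 were higher and 6 lower in Tg-RKIP, with a median of -0.06. Epas1 was at -0.80 (adjusted p = 3.64e-19), the ETS factor Ets1 at -0.52 (adjusted p = 3.29e-12) and Hhex at 0.57 (adjusted p = 3.39e-05). For the Tg-GRK2-labelled libraries 0 were higher and 8 lower, with Klf4 at -0.53 (adjusted p = 5.11e-09) and Hhex at -0.48 (adjusted p = 0.00416). On the most abundant transcript Hhex was not called in Tg-RKIP (0.42, adjusted p = 0.34) or in the Tg-GRK2-labelled libraries (-0.86, adjusted p = 0.199). Eng in Tg-RKIP (-0.01, adjusted p = 0.88) and Cd34 in the Tg-GRK2-labelled libraries (0.04, adjusted p = 0.662) were not called on it either.

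**Figure D5:**
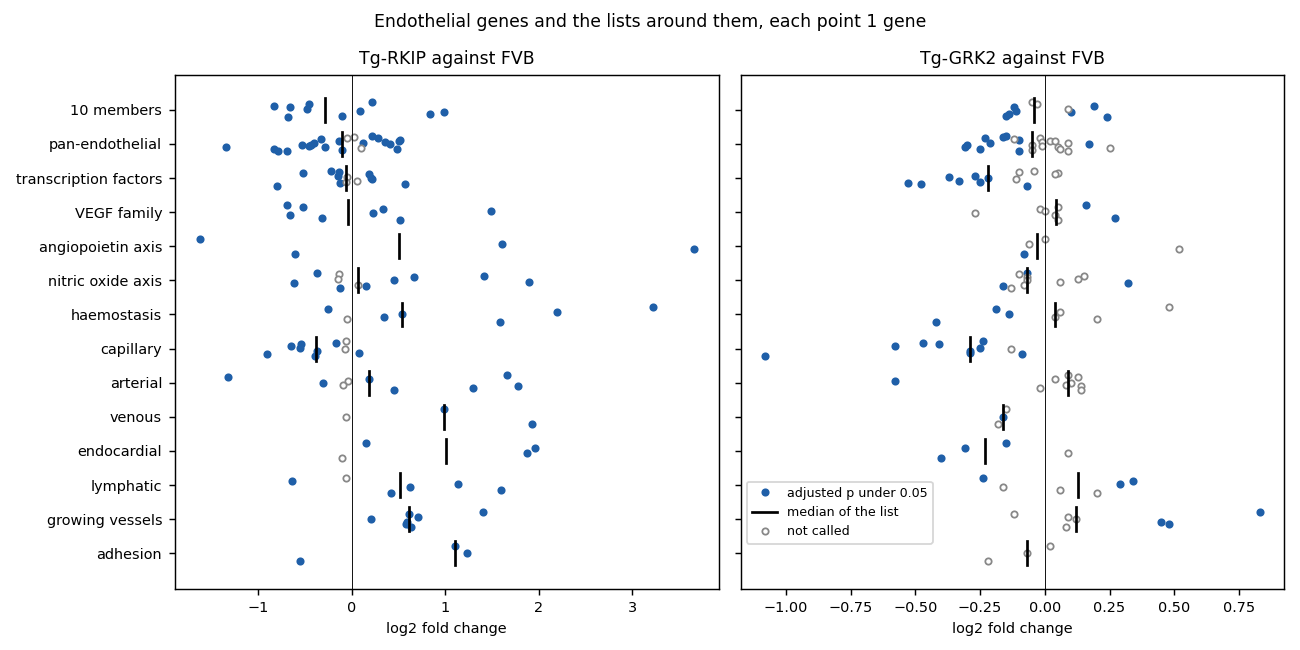
Log2 fold change with TMM scaling (horizontal axis) of the 10 members and of 13 of the lists around them (rows), each point 1 gene, Tg-RKIP against FVB on the left and the Tg-GRK2-labelled libraries against FVB on the right, on different horizontal scales. Filled points have an adjusted p under 0.05 and the bar is the median of the list, which on the left is -0.28 for the members, -0.38 for capillary genes and 0.61 for genes of growing vessels.

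Markers of other cells moved with the groups too. In Tg-RKIP the summed level of 7 fibroblast markers was 2237 to 2240 TPM against 866 to 899 TPM in FVB, that of 9 mural markers 946 to 968 against 553 to 568 TPM, that of 7 macrophage markers 378 to 386 against 149 to 152 TPM, that of 6 adipocyte markers 87.8 to 91.2 against 9.41 to 11.4 TPM, and that of 3 mesothelium markers 55.4 to 57.4 against 21.7 to 23.1 TPM. By the test 6 of the 7 fibroblast markers were higher and 1 lower, and so were 6 and 1 of the 7 macrophage markers. All 6 adipocyte and all 3 mesothelium markers were higher. The mural markers were divided, with 5 higher and 4 lower. The 8 cardiomyocyte markers summed to 59304 to 60425 TPM against 63760 to 64040 TPM, and 7 of them were lower by the test. The summed level of 9 markers of lung epithelium was near 0 in FVB, at 0.284 to 0.560 TPM with 5 of 9 at 0 in all its libraries, but reached 58.9 to 62.1 TPM in Tg-RKIP and 147 to 156 TPM in the Tg-GRK2-labelled libraries. Only 3 of the 9 passed the filter on low counts, the airway genes Scgb1a1, Scgb3a2 and Cyp2f2, named here after their values were seen, and all 3 were higher in both groups. The alveolar markers Sftpc, Sftpa1, Sftpb, Sftpd and Ager did not pass and were not tested. Of 5 genes of lung endothelium, 2 were higher in Tg-RKIP and 0 lower, with a summed level of 33.7 to 34.4 TPM, against 23.8 to 25.3 TPM in FVB and 23.9 to 25.1 TPM in the Tg-GRK2-labelled libraries. The part of these cells in the values of the endothelial genes was not tested.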

How the data were processed

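RNA sequencing of mRNA from whole hearts, with random primers and single reads of 50 bases, gave 9 libraries in 3 groups, taken from the sample labels. The authors deposited read counts per transcript, as whole numbers without normalization, and TPM values per transcript, which equal reads per base of each transcript set to a fixed sum per library. The aligner, the counting program, its strand setting and the division of reads between transcripts are not given in the sources used here. The submitters' processing notes name the build GRCm39. Counts and TPM of 127558 transcripts were summed by gene name.

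The test of counts was edgeR 4.0.16 in R 4.3.3 (TMM, filterByExpr, glmQLFit and glmQLFTest, a mean per group over all 9 libraries) and adjusted by Benjamini-Hochberg over 15504 genes, threshold 0.05. Single members were compared in TPM by exact permutation tests. The script was tested on simulated data. The members, the lists of other genes and the tests were chosen with earlier results of these data known. The genes named are the 10 members and, per list and comparison, those of lists of up to 8 genes and otherwise up to 2 with the largest and 2 with the smallest log2 fold change among called genes without overlap. Alternatives were DESeq2 1.42.0 and its size factors, scaling to library size with and without mitochondrial genes, other filters, a replicate block, fits of 2 groups, each library left out, limma 3.58.1 on log2(TPM + 0.1), with a minimum of 1 TPM in 3 libraries or unfiltered, or on log2(TPM + 1), a fold of at least 1.5, and the most abundant transcript. A length term (an offset per library fitted on transcript length) and the full-length Vwf transcript were chosen after seeing the data. Libraries held 25458108 to 33447654 reads, and members had 657 to 10101 reads each. Sequences came from GENCODE M21 and RefSeq, where all 45 member transcripts matched by identifier and length and 5 of 10 members had a promoter entry.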

Additional observations from a re-analysis of the deposited data

Results flagged for a closer look

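The effects of the transgenic groups differed for 9 of the 10 genes. Both groups were set against the same FVB controls, so the difference of their effects is the direct contrast of Tg-RKIP and the Tg-GRK2-labelled libraries, tested with edgeR's quasi-likelihood test at an adjusted p under 0.05. The log2 difference, Tg-RKIP minus Tg-GRK2-labelled, was 0.98 for Emcn, 0.89 for Vwf, 0.27 for Pecam1 and 0.20 for Tie1. It was -1.02 for Kdr, -0.92 for Aplnr, -0.56 for Tek, -0.54 for Flt1 and -0.43 for Cdh5. In that contrast 74.5% of all tested genes were called. For the full-length Vwf transcript alone the difference in the fit of read counts was -0.20, of the opposite sign. In TPM this transcript was higher in Tg-RKIP, at 18.2 to 20 TPM against 17.2 to 17.3 TPM in the Tg-GRK2-labelled libraries. Its sign thus depended on the scale. Groups of 3 libraries are too small for a test of single libraries that stand apart.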

How the results depend on the processing

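Members had at least 657 reads in each library. In Tg-RKIP against FVB, 4 members were higher and 6 lower. These numbers were 2 higher when the most abundant transcript was counted, 2 higher and 3 lower when a fold of at least 1.5 was tested, and 2 lower with limma on log2(TPM + 0.1), log2(TPM + 1) or log2(TPM + 0.1) without a filter. The list genes were 54 higher and 40 lower, against 82 and 20 with library size only and 22 and 11 for a fold of at least 1.5. With limma 15 list genes were lower, or 14 without a filter. Among Tg-GRK2-labelled libraries against FVB, 3 members higher and 4 lower became 0 and 0 for a fold of at least 1.5 in edgeR (also 0 and 0 at an unadjusted p under 0.05). With each form of limma 0 were lower (0, 0 and, without a filter, 1 at an unadjusted p under 0.05), and 1 was higher with limma without a filter. There was 1 lower with the most abundant transcript and there were 2 with DESeq2. When single libraries were left out, 2 to 4 were lower. The list genes there, 11 higher and 39 lower, became 0 and 1 for a fold of at least 1.5, and 24 were lower with limma, or 20 without a filter. In Tg-RKIP against Tg-GRK2-labelled, 4 higher and 5 lower became 2 and 2 for a fold of at least 1.5, and 3 lower with limma without a filter. The list genes, 68 higher and 31 lower, became 26 and 11 for a fold of at least 1.5, with 19 lower for library size only and 16 with limma. Over all tested genes, 5709 higher and 5751 lower in Tg-RKIP against FVB became 9710 and 2649 with library size only, 8932 and 1964 with limma on log2(TPM + 0.1) and 1975 and 1690 for a fold of at least 1.5. For Tg-GRK2-labelled against FVB, 1895 and 1898 became 837 and 828 with the most abundant transcript and 82 and 73 for a fold of at least 1.5, and 815 were lower with limma. In Tg-RKIP against Tg-GRK2-labelled, 5874 and 5677 became 9608 and 2847 with library size only and 2033 and 1834 for a fold of at least 1.5. These counts have different totals. Limma with a filter tested 13478 genes, 109 of them list genes, and limma without a filter 27280 and 116. The fit of the most abundant transcript tested 15177 genes. DESeq2 did not call Tie1 (adjusted p = 0.0634) or Nos3 (adjusted p = 0.111) in Tg-RKIP against FVB.

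Signs turned as follows. Nos3 in Tg-RKIP against FVB (-0.11) was 0.27 with library size only, 0.07 with library size without mitochondrial genes, 0.31 with limma on log2(TPM + 0.1), with and without a filter, and 0.28 on log2(TPM + 1). Apln (-0.26) was 0.12 with library size only and 0.16 or 0.14 with limma, and Nrp2 (-0.32) was 0.06, 0.10 with limma and 0.04 with the most abundant transcript. The median of all tested genes was 0.38 with library size only and 0.43 over the 13478 genes tested with limma on log2(TPM + 0.1). With the most abundant transcript, Pecam1 was -0.30 against FVB and -0.20 against Tg-GRK2-labelled, and Eng was -0.01. For Pecam1 this left out the rising transcript ENSMUST00000183610. The full-length Vwf transcript was -0.09 and -0.20 in the fit of read counts, while its TPM was higher in Tg-RKIP than in both other groups. Cdh5 in Tg-GRK2-labelled against FVB (-0.03, not called) was 0.01 with limma. The cause of these turns was not tested.

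With the summed level of the 23 genes as the reference, members relative to it changed sign for Tie1 (-0.00451) and Nos3 (-0.193) in Tg-RKIP against FVB, Nos3 against Tg-GRK2-labelled (-0.115) and Pecam1 in Tg-GRK2-labelled against FVB (0.00271). In Tg-GRK2-labelled against FVB 2 members, not 0, were then lower without overlap, and 3, not 5, were higher in Tg-RKIP against Tg-GRK2-labelled. Leaving out single libraries gave 0 to 2 lower members, -0.00402 to 0.0919 for Nos3 in Tg-RKIP, -0.0196 to 0.0113 for Pecam1 and -0.0266 to 0.0478 for Cdh5 in Tg-GRK2-labelled. Differences in TPM ranged from -1.79 to 0.811 for Aplnr in Tg-RKIP against FVB, where Tg-RKIP replicate 3 decided the value, and from -0.887 to 1.11 for Pecam1 and -0.122 to 0.938 for Cdh5 in Tg-GRK2-labelled against FVB.

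Replicate numbers did not pair the libraries. The same number in different groups gave correlations of deviations of -0.08 to 0.07 across genes. With the replicate block 4 members were higher and 6 lower in Tg-RKIP against FVB, and 3 and 4 in Tg-GRK2-labelled against FVB, as without it.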
